A study of Mus musculus with 2 samples.

Results

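The S100 genes described here are 10 members of a family of small calcium-binding proteins, S100a1, S100a4, S100a6, S100a8, S100a9, S100a10, S100a11, S100a13, S100a14 and S100a16. They were taken by symbol, as all transcripts listed under these names, and the values of each gene's transcripts were summed and also read one by one. They make up 10 of the 54329 genes that could be summed, with 29 listed transcripts between them. The series holds 2 RNA libraries, titled W1 and W2, each from flow-sorted cells labelled as mammary basal cells of wild type C57BL/6 mice 8 weeks old. The study describes Pdl1+ and Pdl1- basal cells, but the labels of the libraries differ in title alone, so both stand unassigned and neither is called by a Pd-l1 class. Each library is a single sample, so no p-value is given and every difference has no replicate check. The sources used here do not give the gates, or how many mice and cells went into each library.

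S100 proteins are small proteins that mostly work as paired subunits. Each subunit has a pair of loops known as EF-hands, which bind calcium in most members. On binding calcium, most S100 proteins open a surface that grips a partner, such as an annexin at the membrane or a myosin heavy chain in the cytoskeleton. Some, above all S100a8 and S100a9, are also released and act on surface receptors as inflammatory signals. In the mammary gland, S100 proteins are known from both epithelial layers and from the leukocytes and stroma around them.

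The members are distinct in sequence. Over the whole coding sequences, their 45 pairs were between 34.8% and 57.8% identical (median 47.0%), and S100a4 with S100a6 gave the highest value. Identity was taken over the whole alignment with its gaps, which lowers it for pairs of unequal length. The lowest value was that of S100a6 (267 coding bases) with S100a13 (480). The longest stretch that any pair shared exactly was 19 bases, so reads of 50 bases or more could not have fitted a pair of members' coding sequences equally well.

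The tables give TPM, transcripts per 1000000, a level corrected for transcript length. Whole reads could be recovered from the steps between the values, 3055840 counted reads in W1 and 3800030 in W2. S100 reads came to 2690 in W1 and 8141 in W2, and the members' summed level was 1534.9 TPM in W1 and 4812.4 TPM in W2. S100a11 alone gave 65.0% of that sum in W1 and 75.6% in W2. Of the 10 members, 7 had a read in at least 1 library and 3 had none in either. Of all 54329 genes summed, 15804 were above 0 in at least 1 library. These are bulk samples, in which fewer cells of a type and less RNA per cell cannot be told apart. The cells labelled basal also differed in their markers between the libraries, as given near the end.

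**Figure D1:**
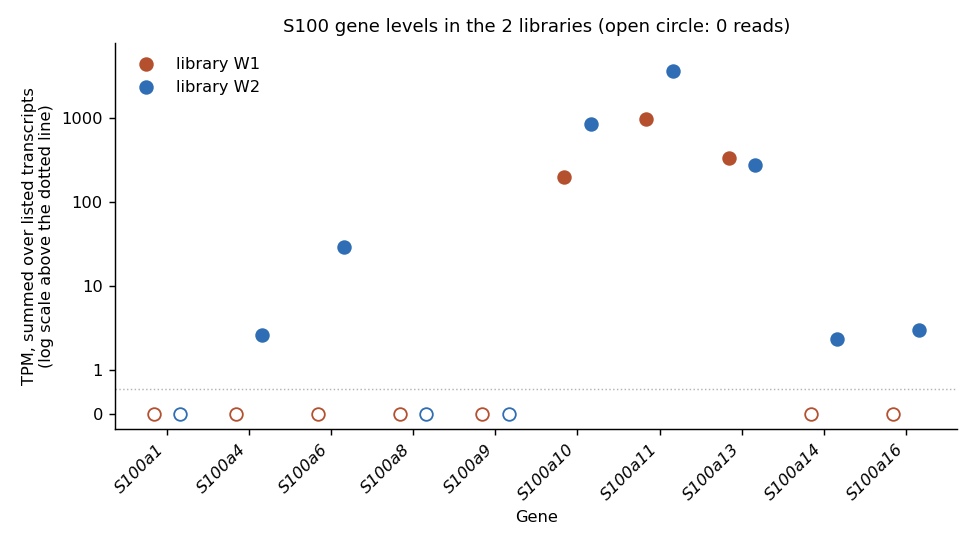
Level of each of the 10 S100 genes in TPM (vertical axis, log scale above the dotted line), in W1 (left of each pair) and W2 (right), with 1 point a library and open circles for 0 reads. S100a11, S100a10 and S100a13 have reads in both libraries, and 4 genes have reads in W2 and 0 in W1.

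S100a11, calgizzarin, a partner of annexin A1 in membrane traffic and growth control, was the highest member in both libraries. The gene (ENSMUSG00000027907.4, chr3:93520488-93526287, plus strand, GRCm38) stood at 998 TPM in W1, from 1545 reads, and at 3640 TPM in W2, from 5674 reads. Its level was 3.65-fold lower in W1, with an exact Clopper-Pearson 95% interval of 3.45 to 3.86. This interval, like those below, covers counting error only, since amplified reads without molecular identifiers are not independent molecules. S100a11 has 1 listed transcript, of 511 bases, so no split among isoforms enters its value.

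The S100a11 transcript does, however, have close copies elsewhere in the genome. Of its 50-mers (runs of 50 bases), 272 of 462 were found in no other listed transcript, and it shared up to 190 with any one of the processed pseudogenes Gm12854, Gm7665 and Gm29240. Gm12854 had 265 reads in W1 and 958 reads in W2, a level 3.59-fold lower in W1 (3.13 to 4.13). Gm7665 had 215 reads in W1 and 763 in W2, a level 3.53-fold lower in W1 (3.03 to 4.12), and Gm29240 had none. Both intervals overlap that of S100a11, and reads of a pseudogene and of its parent gene cannot be told apart here. The S100a11 total is therefore uncertain, while the 3 loci with reads had ratios between 3.53-fold and 3.65-fold.

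S100a10, known as p11, pairs with annexin A2 and helps hold plasminogen and its activator at the cell surface. The EF-hand loop found in its coding sequence has AGC at codon 12. It lacks there the glutamate codon that 8 other members have, a calcium ligand of these loops. The gene (ENSMUSG00000041959.14, chr3:93555080-93564643, plus strand, GRCm38) stood at 203 TPM in W1, from 421 reads, and at 860 TPM in W2, from 1798 reads. Like S100a11, it was lower in W1, here by 4.24-fold (interval 3.81 to 4.73). All of its reads fell on 1 of its 3 listed transcripts, a protein-coding one of 685 bases. That transcript has 276 50-mers of its own, none of which touches the coding part. Reads of 50 bases could thus be told from its other transcripts by the ends alone, not by the bases that encode the protein.

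S100a13, a copper-binding member known for helping fibroblast growth factor 1 and interleukin 1 alpha leave the cell without a signal peptide, was the member least different between the libraries. The gene (ENSMUSG00000042312.9, chr3:90514435-90524581, plus strand, GRCm38) stood at 334 TPM in W1, from 724 reads, and at 275 TPM in W2, from 600 reads. The level was 1.21-fold higher in W1 (interval 1.09 to 1.36), inside the 2-fold limit used for calls here, and the log2 ratio of TPM + 1 was 0.28. That small difference depends on the scaling, since the log2 ratio was -0.02 with mitochondrial and ribosomal protein genes left out of the totals and 0.58 with FPKM in place of TPM. All 666 50-mers of its 1 listed transcript are its own, and S100a13 is the only member of which this holds.

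Within a library, the order of these 3 genes by TPM was not the same. In W1 it was S100a11, S100a13 and S100a10, and in W2 it was S100a11, S100a10, S100a13 and then S100a6, with exact Poisson intervals that did not overlap between neighbours. Those intervals leave out that transcripts differ in how much of their sequence is their own. Per 100 own 50-mers of the transcript with its reads, S100a10 had 152.5 reads in W1 and 651.4 in W2. S100a13 had 108.7 in W1 and 90.1 in W2. By that measure S100a10 lay above S100a13 in W1 as well. Over the own 50-mers of all listed S100a10 transcripts, it had 52.6 reads per 100 in W1 and 224.5 in W2. By this second measure S100a10 lay below S100a13 in W1, so their order there depends on the length used. S100a11 (568 reads per 100 own 50-mers in W1 and 2086 in W2) was highest by each measure.

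**Figure D2:**
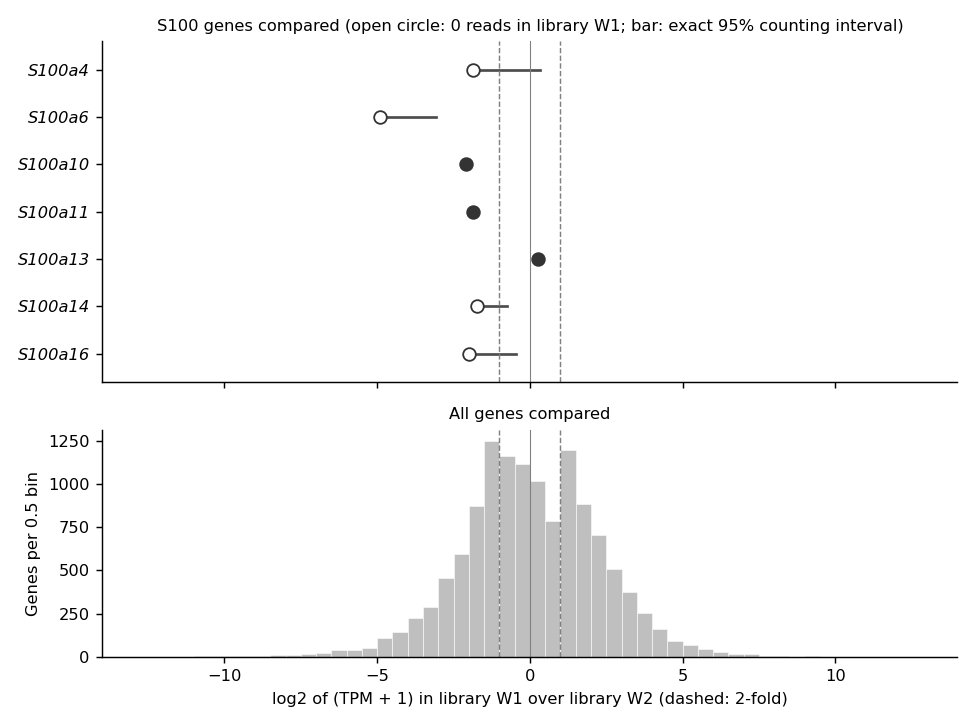
Log2 ratio of TPM + 1 in W1 over W2 for the 7 S100 genes compared (top) and for all 12586 genes compared (bottom, genes per bin of 0.5). Bars are exact 95% counting intervals and are shorter than the symbol for S100a10, S100a11 and S100a13. For the 4 genes with 0 reads in W1, the bar runs from the ratio to the upper limit alone. Dashed lines mark 2-fold. S100a13 lies between the dashed lines at 0.28, and the other 6 lie to their left, 4 of them drawn open because W1 had 0 reads.

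The other 4 members with reads had them in W2 alone. S100a6, calcyclin, which binds the ubiquitin ligase adaptor Cacybp and is associated with proliferating cells, was the best covered of these. The gene (ENSMUSG00000001025.8, chr3:90612882-90624181, plus strand, GRCm38) had 0 reads in W1, against 45 reads and 29.0 TPM in W2. A count of 0 was given a floor of 3 reads per library. Against that floor, with the reads of W2 taken as exact, the level of S100a6 was 14.9-fold lower in W1. The log2 ratio of TPM + 1 was -4.91, with a counting limit of -3.07 toward equality. No limit was set on the other side, since W1 had 0 reads. The reads of W2 lay on 2 of its 4 listed transcripts, 28 on a coding transcript of 731 bases and 17 on a retained-intron transcript of 338 bases. On the coding one, the 272 own 50-mers all lie in bases 1 to 321, before the coding part, which starts at base 370.

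S100a4, metastasin, binds the non-muscle myosin heavy chain encoded by Myh9 and is widely used as a marker of fibroblasts and of migrating cells. The gene (ENSMUSG00000001020.8, chr3:90603771-90606045, plus strand, GRCm38) had 0 reads in W1, against 4 reads and 2.63 TPM in W2. Against the floor of 3 reads this is 1.32-fold lower in W1. However, its log2 ratio of TPM + 1, -1.86, had an upper counting limit of 0.34, above 0. A difference in S100a4 was thus not detectable at this depth. The annotated transcript Gm42674 overlaps the gene on the same strand and shares up to 253 50-mers with it; it had 0 reads in W1 and 1 in W2.

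S100a14 and S100a16 are members best known from epithelia. S100a14 (ENSMUSG00000042306.11, chr3:90526856-90528837, plus strand, GRCm38) had 0 reads in W1, against 12 reads and 2.34 TPM in W2. Its level was 3.97-fold lower in W1 against the floor, with the reads of W2 taken as exact. The log2 ratio of TPM + 1 was -1.74, with a counting limit of -0.74 toward equality and none set on the other side. All 12 reads lay on a retained-intron transcript of 1683 bases with 730 own 50-mers. The coding transcript of 1059 bases has 0 own 50-mers, so its 0 reads say little about its level. S100a16 (ENSMUSG00000074457.10, chr3:90537254-90543151, plus strand, GRCm38) had 0 reads in W1, against 8 reads and 2.98 TPM in W2. Its level was 2.65-fold lower in W1 against the floor, again with the reads of W2 taken as exact. The log2 ratio of TPM + 1 was -1.99, with a counting limit of -0.45 toward equality and none set on the other side. Its 8 reads lay on 1 of 8 listed transcripts, a coding one of 879 bases with 135 own 50-mers. In W2 the levels of S100a16, S100a4 and S100a14 had overlapping exact Poisson intervals (1.29 to 5.88, 0.717 to 6.74 and 1.21 to 4.08 TPM), so these 3 cannot be put in order.

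S100a8, S100a9 and S100a1 had 0 reads in both libraries. S100a8 and S100a9 together form calprotectin, the major cytosolic protein of neutrophils and a ligand of Tlr4 and of the receptor encoded by Ager. For S100a8 (ENSMUSG00000056054.9, chr3:90668978-90670035, plus strand, GRCm38), 3 reads would have been 2.04 TPM in W1 and 2.02 TPM in W2. For S100a9 (ENSMUSG00000056071.12, chr3:90692632-90695721, minus strand, GRCm38), the same floor was 1.91 TPM in W1 and 1.90 TPM in W2. Their transcripts have between 46 and 208 own 50-mers, so a low level could have been missed in both libraries.

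Neutrophils are the main known source of S100a8 and S100a9. Of the 13 genes in the neutrophil list, 9 were at 0 in both libraries, namely Ly6g, Ngp, Ltf, Retnlg, Csf3r, Cxcr2, Elane, Mpo and Cd177. Thus 4 of 13 had a read, against 15804 of all 54329 genes summed. The count at 0 therefore says nothing particular to neutrophil genes and does not show that neutrophils were absent. The list's summed level was 15.4 TPM in W1 and 28.2 TPM in W2. Nearly all of these sums came from Mmp9, a gelatinase, with 140 reads in W1 and 0 in W2, and from Lcn2, lipocalin 2, with 0 reads in W1 and 112 in W2. Both genes are also expressed by other cell types. S100a1, known from heart and skeletal muscle, where it tunes calcium release, is the third member without a read. At S100a1 (ENSMUSG00000044080.9, chr3:90511034-90514392, minus strand, GRCm38), 3 reads would have been 1.46 TPM in W1 and 1.45 TPM in W2.

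**Figure D3:**
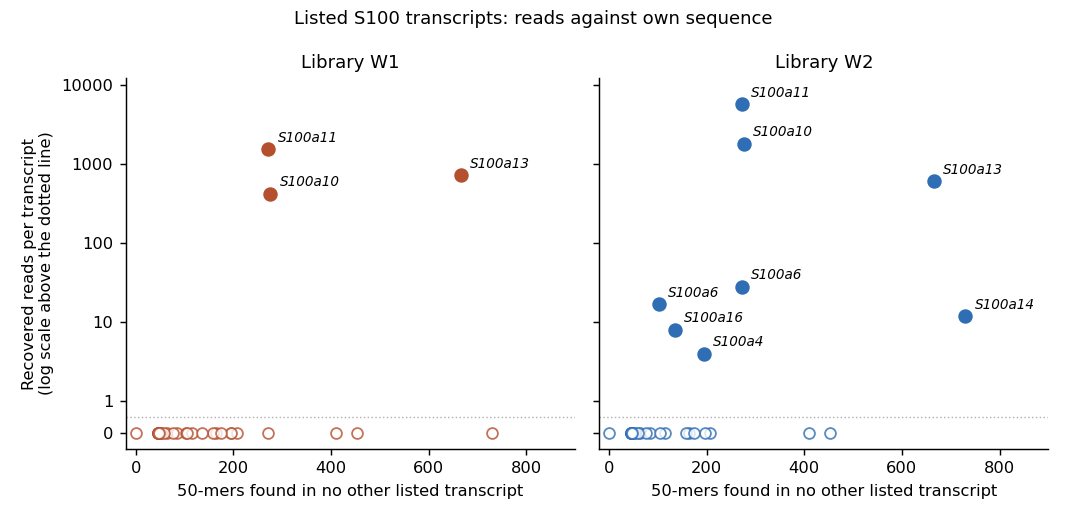
Recovered reads (vertical axis, log scale above the dotted line) of each of the 29 listed S100 transcripts against its number of own 50-mers (horizontal axis), in W1 (left) and W2 (right); open circles had 0 reads. Transcripts with reads numbered 3 in W1 and 8 in W2, and the lowest number of own 50-mers among them was 103.

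The share of transcripts with a read differed with how much of their sequence was their own. Over all listed transcripts, 36.4% of those richest in own 50-mers (over 500) had a read in at least 1 library, against 9.83% of those with 1 to 500 and 0.44% of those with 0 in genes with several listed transcripts. In genes with 1 listed transcript, 7.55% of those with 0 had a read, and the classes are not matched for expression or kind of transcript. Of the 29 S100 transcripts, 8 had a read, and none of these had fewer than 103 own 50-mers. Of the 21 without a read, 12 had fewer than that. The 2 members with 1 listed transcript, S100a11 and S100a13, both had reads in each library, at least 600 in each, while among the 8 with several transcripts only S100a10 had reads in both. A count of 0 in S100a1, S100a8, S100a9, and for W1 in S100a4, S100a6, S100a14 and S100a16, does not show that the gene was silent.

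Read as a group, 7 of the 10 members reached 1 TPM in at least 1 library and were compared with all genes that did. Of these 7, 6 were 2-fold or more higher in W2, 0 were so in W1 and 1 lay within 2-fold. Over all 12586 genes compared, 34.7% were 2-fold or more higher in W1 and 32.9% were so in W2. The median log2 ratio of TPM + 1, W1 over W2, was -1.87 over the 7 members and -0.07 over all genes compared. However, 4 of the 6 had 0 reads in W1 and were compared through their level in W2, so they had to differ. With those 4 set at the floor of 3 reads in W1, the median was -1.07. With a pseudocount of 5 in place of 1, the count higher in W2 was 3, namely S100a6, S100a10 and S100a11.

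With a level of at least 1 TPM required of both libraries, 3 members remained, and 2 of them, S100a10 and S100a11, were 2-fold or more higher in W2. The share of all 6804 such genes was 16.6% higher in W1 and 28.9% higher in W2. A count of 0 in W1 was itself common, since 13.1% of the 12586 genes compared had 0 reads there and 21.6% had 0 reads in W2. The group's count thus rests on S100a10 and S100a11 as far as levels in both libraries go.

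The members also share an address. All 10 lie on mouse chromosome 3 in 2 stretches, 8 of them with S100a2, S100a3, S100a5 and S100a7a in the first and S100a11 with S100a10 in the second, 2824766 bases further on. The second stretch, with 28792 bases between its genes, held the 2 members that were 2-fold or more higher in W2 and read in both libraries. In the first stretch S100a1 and S100a13 lie head to head with 42 bases between them, S100a1 with 0 reads in both libraries and S100a13 with 724 reads in W1 and 600 in W2. The 4 other S100 genes there had 0 reads in both libraries, which does not show that they were silent. Their own 50-mers ran from 9 in S100a5 to 4948 in S100a3. Of 107 other listed genes across the whole region, 15 had a read, against 15804 of all 54329 genes summed.

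**Figure D4:**
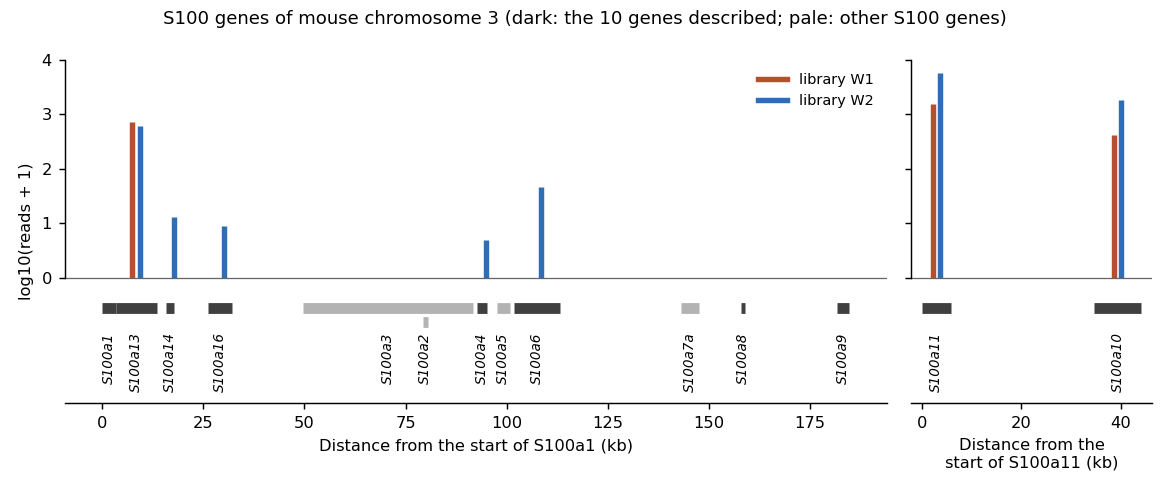
S100 genes of chromosome 3 drawn to scale within each stretch (blocks: gene spans, dark for the 10 members, pale for other S100 genes; horizontal axis: distance in kb from the lowest coordinate of S100a1, left, or S100a11, right), with reads as log10(reads + 1) above each gene, W1 left of W2. Reads of W1 are seen at S100a13, S100a11 and S100a10 alone.

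Promoter windows from RefSeq (GRCm38.p6), from 250 bases before to 50 after each start site, were found for 8 of the 10 members (9 windows, a pair for S100a16), all but S100a10 and S100a14. They were searched on both strands for TATAAA (the TATA box), CCAAT (bound by NF-Y), GGGCGG (bound by Sp1) and TGANTCA. The last is a loose form of the AP-1 site, whose usual middle base is G or C. No match overlaps another in the windows printed. TATAAA occurred in 3 members (S100a4, S100a8 and S100a9), against 13.6% of all 32851 windows, and CCAAT in 1 (S100a6), against 37.4%. GGGCGG occurred in 3 (S100a9, S100a11 and S100a16), against 35.7%, and TGANTCA in 2 (S100a11 and S100a16), against 7.8%. Members are counted once however many windows they have, while the shares are over single windows. TATAAA of S100a9 began at position 251 of its window, the start site itself, and both S100a16 matches lay in the same 1 of its windows. The TGANTCA match of S100a16 reads TGAATCA, while those of S100a11 read TGAGTCA. These are matches of letters and not shown to be sites.

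The 250 bases before the start of the most read member, S100a11 (chr3:93520246-93520495, plus strand), are printed beside those of S100a4 (chr3:90603520-90603769, plus strand), a member with a TATA box and 4 reads in all. Capitals mark the motif matches.
S100a11: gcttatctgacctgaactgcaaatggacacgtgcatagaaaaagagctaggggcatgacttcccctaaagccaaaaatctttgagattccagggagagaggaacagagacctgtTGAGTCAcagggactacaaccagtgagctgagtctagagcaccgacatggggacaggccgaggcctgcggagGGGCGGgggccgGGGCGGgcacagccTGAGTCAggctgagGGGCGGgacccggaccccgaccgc
S100a4: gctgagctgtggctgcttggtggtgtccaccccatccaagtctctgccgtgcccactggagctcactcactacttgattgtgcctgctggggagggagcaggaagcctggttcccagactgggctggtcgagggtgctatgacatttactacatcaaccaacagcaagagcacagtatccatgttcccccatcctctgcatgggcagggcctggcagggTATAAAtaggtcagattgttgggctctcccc
The S100a11 window holds GGGCGG at positions 187, 199 and 227 and TGANTCA at positions 115 and 213, counted from 1 at its 5′ end, with 15 CG dinucleotides and 61.7% G or C over its 300 bases. The S100a4 window holds TATAAA at position 220, with 2 CG dinucleotides and 55.3% G or C, where the median over all windows was 7 and 52.7%.

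Genes whose proteins work with S100 proteins were counted in the same way. Of 20 annexins and other partners, 14 were compared, of which 4 were 2-fold or more higher in W1, 6 were so in W2 and 4 lay within 2-fold, with a median log2 ratio of 0.47. The shares over all genes compared were 34.7% higher in W1 and 32.9% higher in W2, so these counts, and those of the 3 lists that follow, say nothing particular to a list. Anxa2, the annexin that S100a10 binds, stood at 2.95 TPM in W1, from 7 reads, and at 16.7 TPM in W2, from 46 reads, 5.67-fold lower in W1 (2.54 to 14.9). Ahnak, a giant scaffold protein that binds the S100a10 and annexin A2 complex, stood at 24.2 TPM in W1 and 65.2 TPM in W2, 2.70-fold lower in W1 (2.45 to 2.97). Both therefore lay on the same side as S100a10.

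Plat, the plasminogen activator that this complex can hold, lay on the other side, at 815 TPM in W1 and 423 TPM in W2, 1.93-fold higher in W1 (1.85 to 2.01) and within the 2-fold limit on the log scale. Plaur, the urokinase receptor, stood at 34.8 TPM in W1 and 10.5 TPM in W2, 3.31-fold higher in W1 (2.27 to 4.90). Plg, plasminogen itself, had 0 reads in both libraries.

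Anxa1, the partner of S100a11, stood at 80.3 TPM in W1 and 52.9 TPM in W2, 1.52-fold higher in W1 (1.29 to 1.79), the reverse of S100a11. Cacybp, the partner of S100a6, stood at 42.6 TPM in W1 and 128 TPM in W2, 2.99-fold lower in W1 (2.61 to 3.45). Myh9, whose product S100a4 binds, stood at 85.3 TPM in W1 and 42.5 TPM in W2, 2.01-fold higher in W1 (1.83 to 2.20), and just inside the 2-fold limit on the log2 scale of TPM + 1, at 0.99. Sugt1, another S100a6 partner, stood at 2.59 TPM in W1 and 1.82 TPM in W2, with an interval that includes equality. On the log2 scale of TPM + 1, the largest ratios of the list were those of Anxa7, at 39.3 TPM in W1 and 0 reads in W2, and of Anxa8, with 0 reads in W1 and 12.2 TPM in W2. Against the floor of 3 reads, with the other library's reads taken as exact, Anxa7 was 56.7-fold higher in W1 and Anxa8 23.2-fold lower. Anxa3 followed on that scale, at 18.6 TPM in W1 and 1.23 TPM in W2, 15.1-fold higher in W1. By plain fold, Ahnak2, with 1 read in W1 and 40 in W2, was 39.6-fold lower in W1 (6.70 to 1601).

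Among 7 genes of S100 receptors and binding proteins at the surface, 4 were compared, 2 higher in each library. Tlr4, the lipopolysaccharide receptor that also answers to calprotectin, stood at 16.03 TPM in W1 and 4.99 TPM in W2, 3.22-fold higher in W1 (2.41 to 4.35). Emb, embigin, a cell surface glycoprotein reported to bind S100a8 with S100a9, had 0 reads in W1 and stood at 171 TPM in W2, from 1515 reads. Against the floor of 3 reads, with the reads of W2 taken as exact, Emb was 502-fold lower in W1. Sdc1, syndecan 1, stood at 2.93 TPM in W1 and 11.7 TPM in W2, 4.01-fold lower in W1 (2.63 to 6.30). Cd36 stood at 1.17 TPM in W1 with 0 reads in W2 and Bsg at 0.865 TPM in W1 with 0 reads in W2, and Ager had 0 reads in both.

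Other EF-hand genes, 33 in the list and 20 compared, had 8 higher in W1, 9 higher in W2 and 3 within 2-fold (median log2 ratio -0.32). Myl9, a regulatory light chain of smooth muscle myosin, stood at 5.27 TPM in W1 and 3278 TPM in W2. Efhd2, a calcium-dependent actin regulator, stood at 123 TPM in W1 and 979 TPM in W2, 7.98-fold lower in W1 (7.44 to 8.57). Sri, sorcin, stood at 20.7 TPM in W1 with 0 reads in W2, while Myl6, an essential light chain of myosin, had 0 reads in W1 and 3.20 TPM in W2. Calmodulin genes were themselves split, since Calm2 was 3.03-fold lower in W1 (2.82 to 3.27) and Calm3 was 2.54-fold higher there (1.85 to 3.54).

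Of 12 transcription factors studied at S100 promoters, 10 were compared, 3 higher in W1, 3 higher in W2 and 4 within 2-fold (median log2 ratio -0.62). Fosl1, an AP-1 subunit, stood at 41.8 TPM in W1 and 1038 TPM in W2, 24.9-fold lower in W1 (21.8 to 28.4). The other AP-1 subunits of the list lay within 2-fold. Fos stood at 2547 TPM in W1 and 4295 TPM in W2, and Jun at 197 TPM in W1 and 276 TPM in W2. Cebpb stood at 668 TPM in W1 and 2040 TPM in W2, 3.06-fold lower in W1 (2.93 to 3.18), and its relative Cebpd was 2.76-fold lower there (2.57 to 2.96). Stat3 lay on the other side, at 18.1 TPM in W1 and 1.74 TPM in W2, 10.4-fold higher in W1 (6.63 to 16.8). Whether any of these factors bears on the S100 levels was not tested.

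**Figure D5:**
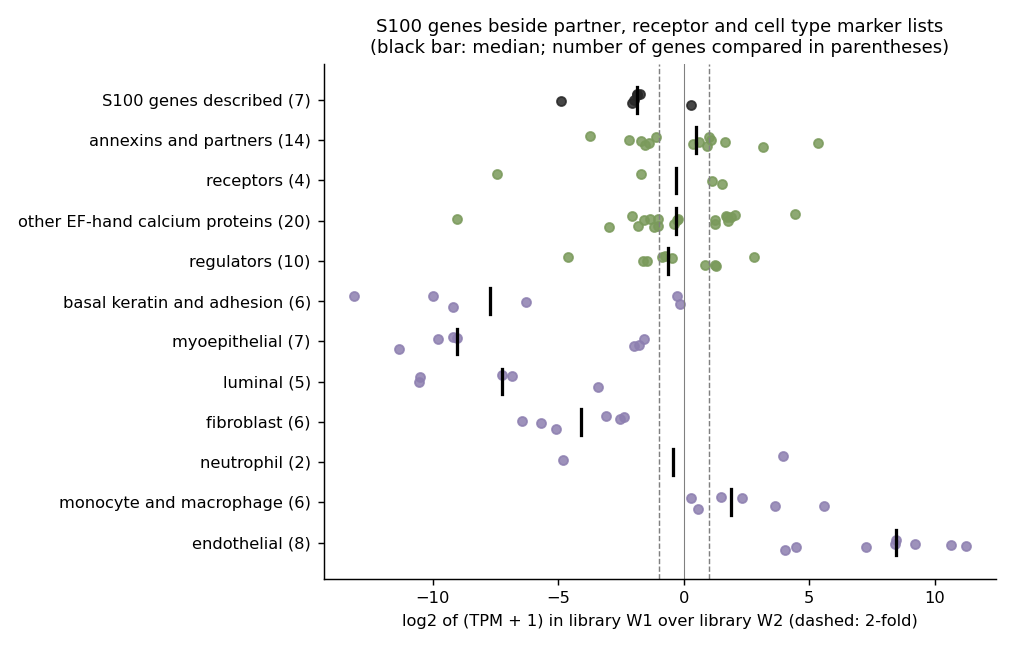
Log2 ratio of TPM + 1 in W1 over W2 (horizontal axis, dashed lines at 2-fold) for the genes compared in each list, 1 point a gene with a black bar at the median and the number of genes in parentheses. The 7 S100 genes have a median of -1.87, the endothelial markers lie to the right at a median of 8.43 and the myoepithelial markers to the left at -9.03.

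Several lists of cell type markers had median ratios far larger than that of the S100 genes. Over all genes compared, 34.7% were 2-fold or more higher in W1 and 32.9% were so in W2. All 8 endothelial markers compared, of 11 listed, were higher in W1, with a summed level of 7079 TPM in W1 and 4.86 TPM in W2. All 7 myoepithelial markers were higher in W2, with 59.4 TPM in W1 and 25486 TPM in W2, and the 10 basal keratin and adhesion genes summed to 150 TPM in W1 and 14842 TPM in W2, with Trp63, Itgb4 and Lamb3 at 0 in both. Of that list, Krt5, Krt14, Krt17 and Cdh3 were 2-fold or more higher in W2, while Itga6 stood at 140.0 TPM in W1 and 169.7 TPM in W2 and Dst at 9.61 TPM in W1 and 10.9 TPM in W2, both within 2-fold. Luminal markers summed to 6.10 TPM in W1 and 4324 TPM in W2, and fibroblast markers to 3.19 TPM in W1 and 206 TPM in W2. These epithelial and stromal lists thus leaned to W2. Monocyte and macrophage markers summed to 288 TPM in W1 and 28.1 TPM in W2, of which Cd14 alone gave 221 TPM in W1 and 17.1 TPM in W2. Of the 6 compared, 4 were higher in W1 and 2, Csf1r and C1qa, lay within 2-fold. Of those 4, Lyz2, Mrc1 and C1qb had 0 reads in W2 and were compared through their level in W1. Adgre1, Itgam, Fcgr3 and Ccr2 had 0 reads in both libraries. The basal keratins and the myoepithelial markers other than Mylk were thus far lower in W1, while Itga6 and Dst were not. Mylk stood at 45.4 TPM in W1, most of that list's sum there, and at 138 TPM in W2, 3.05-fold lower in W1 (2.83 to 3.28). The part of these cell types in the S100 differences was not tested.

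Keratinocyte markers summed to 0.9 TPM in W1 and 4.94 TPM in W2, nerve and glia markers to 0 in W1 and 27.4 TPM in W2, and other leukocyte markers to 33.2 TPM in W1 and 0 in W2. Most of the nerve and leukocyte sums came from Mbp, with 0 reads in W1 and 277 in W2, and from Cd79a, with 145 reads in W1 and 0 in W2. Of 9 further genes with S100 names, S100pbp alone had reads, 10 in W1 and 0 in W2, and of 7 fused-type S100 genes Tchh had 0 reads in W1 and 35 in W2 while Rptn had 6 in W1 and 0 in W2.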

How the data were processed

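RNA of sorted cells labelled as mammary basal cells was sequenced in 2 libraries, W1 and W2, per the labels. The authors deposited TPM and FPKM for 137767 transcripts; TPM was the deposited FPKM times 1.00852 in W1 and 1.24567 in W2. Bowtie 0.12.2, mm8 and GRCm38 are named, per the submitters' processing notes, without roles; the counter, the annotation, the read length and any use of strand: not given in the sources used here. Identifiers were matched to GENCODE M21 (GRCm38), 137654 with a match and 113 without, and summed per gene. No value column was left unused (0).

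FPKM times transcript length falls on whole multiples of the value of 1 read, which gave the depth, 3055840 reads in W1 and 3800030 in W2. Within 0.1 read, 98.47% of values above 0 in W1 and 98.07% in W2 were whole. How reads that fit several isoforms were counted is not given, so the 50-mers found in no other listed transcript are given for each transcript. The length of 50 bases is a choice made here, since the read length is not given. The log2 ratio of TPM + 1 in W1 over W2 was taken for genes reaching 1 TPM in at least 1 library, with calls at 2-fold. Since the 2 libraries are unassigned and have no replicate, there is no test and no group. Neither library was given a Pd-l1 class. Ratios carry exact Clopper-Pearson 95% intervals on reads and levels exact Poisson intervals. A count of 0 has a floor of 3 reads per library, and folds against it take the other library's reads as exact. The steps were tested on simulated data. Python 3.11.15, numpy 2.4.6, pandas 2.3.3, scipy 1.17.1, matplotlib 3.10.9 and Biopython 1.88 were used.

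The members and the gene lists were chosen with earlier results of these data known. All members were named. Of each partner, receptor, EF-hand and regulator list, up to 4 genes with the largest absolute log2 ratio and known partners or receptors of members were named. Calm2, Calm3, Plaur, Ahnak2, Fos, Jun and the markers named singly were added after their values were seen. Alternatives changed the pseudocount, filter, unit, gene summary and library total.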

Additional observations from a re-analysis of the deposited data

How the results depend on the processing

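The count of S100 members 2-fold or more higher in W2 was 6 of 7, and the count higher in W1 was 0 under each of the 10 other settings tried. With a pseudocount of 0.1 the median log2 ratio was -4.61, and with a pseudocount of 5 it was -0.68 and the count was 3, as S100a4 (-0.61), S100a14 (-0.55) and S100a16 (-0.68) came inside 2-fold. With 20 or more reads in at least 1 library, 4 members were left, with a count of 3 and a median of -1.97. Without mitochondrial and ribosomal protein genes in the totals the median was -2.19. With 1 TPM or more in both libraries, a filter chosen after seeing the data, 3 members were left and the count was 2. Scaling moved the median of all genes compared from -0.07 to 0.23 with FPKM, 0.25 with reads scaled to the library total and -0.32 without mitochondrial and ribosomal protein genes. Under none of these did the split of all genes called shift by over 10 percentage points. The median of the members over the counting intervals ran from -1.95 to -0.74, where the 4 members at 0 reads in W1 had an upper limit alone. Of 63 pairs of a member and a setting, 60 stayed on the same side of 2-fold. The log2 level of S100a10 over S100a13 in W1 was -0.72 by TPM. It reversed to 0.49 by reads per 100 own 50-mers of the S100a10 transcript with reads. That measure was added after seeing the data and divides by the 50-mers found in that transcript alone. Over the own 50-mers of all listed S100a10 transcripts, the order did not reverse. No paired analysis was possible because the 2 libraries are unassigned and there is no test. Without replicates, no replicate could be left out. Depth limits S100a4, S100a14 and S100a16, with 4, 12 and 8 reads in all, and the members at 0.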
